A study of Mus musculus and Acomys cahirinus with 2 samples.

Results

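The cells described here are 1223 barcodes of the Mus library in which Krt24 or Krt78 RNA was found together with Krt10, the keratin that keratinocytes make once they leave the basal layer. They were chosen from measured values. A barcode had to hold at least 3000 unique molecular identifiers (UMIs, each standing for 1 captured RNA molecule) and 200 genes, with at most 20% of its UMIs from mitochondrial genes. Krt10 had to make up at least 1% of its UMIs, and Krt24 and Krt78 together at least 3 UMIs. Of 7632 Mus barcodes within the first limits, 2013 passed the Krt10 limit and are called Krt10 barcodes below, and 1223 of these were members (60.8%, exact binomial 95% interval 58.6 to 62.9). A further 334 Krt10 barcodes had 0 UMIs of both genes and served as the comparison set, called Krt24/Krt78-zero barcodes, while 456 had 1 or 2 UMIs.

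The series held 10x Genomics single-cell RNA libraries of adult ear skin from Mus musculus, the laboratory mouse, and Acomys cahirinus, the spiny mouse, a rodent known for regrowing ear tissue. Its title calls the tissue injured and the libraries day 0, and the labels name no strain, sex, genotype or number of animals. There was 1 library for each species, so no difference was tested between conditions, and no p-value is given. Levels are UMIs of a gene per 1000000 UMIs, both summed over a set (CPM), and intervals are exact 95% intervals that cover counting error only.

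The outer skin renews itself from a basal layer that carries Krt5 and Krt14. Cells that move up first make Krt1 and Krt10 in the spinous layer, then the proteins, proteases and lipids of the granular layer, and end as dead, cross-linked corneocytes. Krt24 is a type I keratin reported in differentiating keratinocytes, and Krt78 is a type II keratin of suprabasal epithelium. Involucrin (Ivl) is an early envelope precursor that transglutaminases cross-link under the plasma membrane.

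The 250 bases before a listed RefSeq start site of Krt24, Krt78 and Ivl are shown (GRCm38.p6, minus strand of each chromosome, written 5′ to 3′). Those genes define the members or mark the late keratinocyte programme. The windows lie at chr11:99285263-99285512 for Krt24, chr15:101954288-101954537 for Krt78 and chr3:92573736-92573985 for Ivl. The whole Krt78 gene is listed at 101946001 to 101996624, so its window lies inside that span. The Ivl window overlaps the listed end of its gene at 92573790. Capitals mark matches, on either strand, to TGANTCA (the AP-1 motif), CACCC (a core bound by Krüppel-like factors) and TATAAA.
Krt24: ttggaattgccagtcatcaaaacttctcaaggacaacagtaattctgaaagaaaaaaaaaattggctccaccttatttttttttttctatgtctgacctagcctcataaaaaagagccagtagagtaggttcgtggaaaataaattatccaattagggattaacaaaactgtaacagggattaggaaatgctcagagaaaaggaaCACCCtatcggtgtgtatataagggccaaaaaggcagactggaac
Krt78: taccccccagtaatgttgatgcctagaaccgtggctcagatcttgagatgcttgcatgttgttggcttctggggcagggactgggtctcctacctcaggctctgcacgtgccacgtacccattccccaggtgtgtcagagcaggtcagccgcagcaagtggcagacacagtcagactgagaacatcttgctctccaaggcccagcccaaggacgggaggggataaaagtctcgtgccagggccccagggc
Ivl: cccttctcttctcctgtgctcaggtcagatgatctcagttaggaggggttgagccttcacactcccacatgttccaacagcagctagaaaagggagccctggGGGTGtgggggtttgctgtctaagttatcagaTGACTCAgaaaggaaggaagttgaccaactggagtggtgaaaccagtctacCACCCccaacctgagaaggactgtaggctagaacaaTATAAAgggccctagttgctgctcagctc
Among 32851 mouse promoter windows of this length, 6.75% held TGANTCA, 52.0% held CACCC and 12.4% held TATAAA. The Ivl window held 1 TGANTCA, 2 CACCC and 1 TATAAA, the Krt24 window held 1 CACCC, and the Krt78 window held none of them. Of the 14 genes named below as higher in members, 12 had a promoter in the RefSeq table, and 1 of these held TGANTCA and 9 held CACCC. Of the 14 named as lower, 11 had one, and 3 held TGANTCA and 9 held CACCC. A match is a run of letters and does not show binding.

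Most members were chosen by their Krt24 UMIs. Krt24 UMIs per member ran from 0 to 201 with a median of 13, and those of Krt78 from 0 to 32 with a median of 1. Summed over members, Krt24 stood at 1055 CPM and Krt78 at 143 CPM. These are 3′-end counts, and which gene is the more expressed was not tested. Krt24 was found in 1217 of 1223 members and Krt78 in 719, and 6 members had Krt78 alone.

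The numbers of UMIs formed no gap at the limit. Krt10 barcodes with 1 or 2 UMIs numbered 284 and 172, those with exactly 3 numbered 87 and those with exactly 4 numbered 69. Just inside the limit, at 3 UMIs, Tesc stood at 37.7 CPM and Dkkl1 at 88.0 CPM, and just outside it, at 2 UMIs, Tesc stood at 25.1 CPM and Dkkl1 at 69.2 CPM. Among the members the 2 keratins together ran from 77.5 to 10135 CPM per barcode, with a median of 869 CPM.

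**Figure D1:**
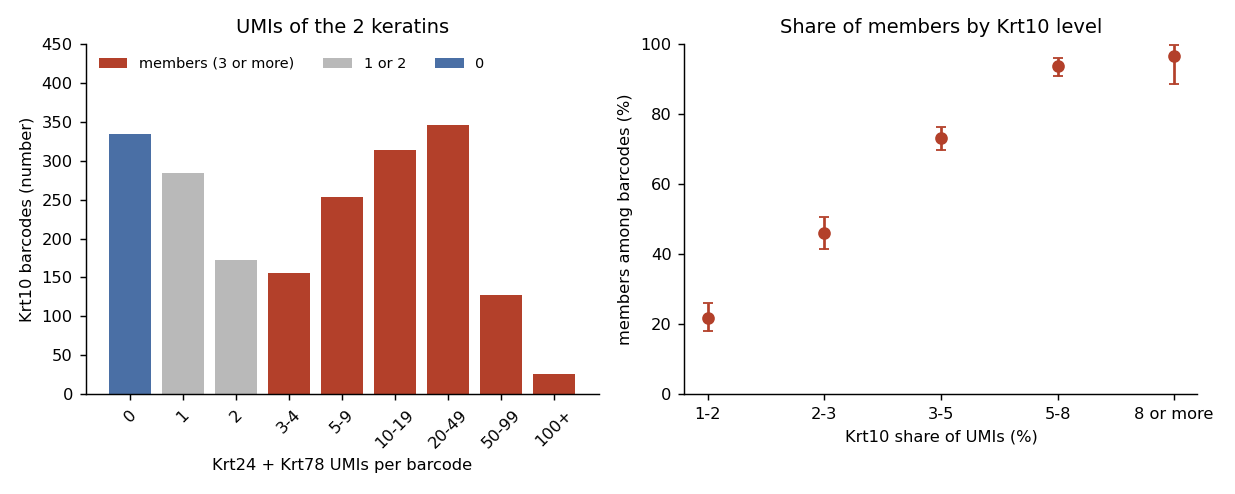
Left, number of Mus Krt10 barcodes by their summed Krt24 and Krt78 UMIs; bars of 3 or more UMIs are the 1223 members, and the bar at 0 is the 334 Krt24/Krt78-zero barcodes. Right, percent of barcodes that are members by Krt10 share of UMIs, with exact 95% binomial intervals, from 21.8% at 1 to 2% Krt10 to 96.7% at 8% or more.

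Some Krt24 UMIs lay in barcodes of cell types that should lack the gene, and their source was not tested. At least 3 UMIs of the 2 keratins were found in 2 of 152 endothelial barcodes, 1 of 51 fibroblast barcodes and 13 of 95 T cell barcodes (their median depths were 4424, 4674 and 19322 UMIs). Thinned to 3000 UMIs each, 79.3% of members and 15.1% of endothelial barcodes had Krt24, and 29.1% of members and 2.63% of endothelial barcodes had Krt78. Barcodes rich in Krt14 and under 0.5% Krt10, called basal barcodes here, gave 15.8% for Krt24 and 1.80% for Krt78, near the endothelial shares. At 3 UMIs after thinning the shares were 50.5% of members and 0.80% of basal barcodes. A limit of 300 CPM for the 2 keratins was passed by 1031 of the 1223 members, by 3.48% of basal barcodes and by 4.21% of T cell barcodes.

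Members were deeper than the barcodes they were set against, and richer in Krt10. Their median was 20485 UMIs and 3458 genes, against 13821 UMIs and 2963.5 genes in Krt24/Krt78-zero barcodes. Mitochondrial genes took a median of 2.39% of UMIs in members and 2.89% in Krt24/Krt78-zero barcodes, and Krt10 took 4.19% and 2.14%. With every barcode thinned to 3000 UMIs before the choice, 618 barcodes met the rule. Doublet scores marked 102 members (8.34%) and 31 Krt24/Krt78-zero barcodes (9.28%). The Mus library had 130039670 UMIs and the Acomys library 71042559, and 5 members shared a barcode sequence with an Acomys barcode within the limits.

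Other keratins were set beside the label of suprabasal keratinocytes. All the sets were chosen by Krt10 and basal barcodes also by Krt14, so the Krt14 levels are a description and no check of the label. Krt14, the basal type I keratin, stood at 2680 CPM in members, against 8350 CPM in Krt24/Krt78-zero barcodes and 30572 CPM in basal barcodes. Krt2, a keratin of the upper mouse epidermis, stood at 24697 CPM in members and 11448 CPM in Krt24/Krt78-zero barcodes. The sum of a list of other keratins, nearly all of it Krt2, had a ratio of 2.15 over all Krt10 levels, 1.14 at 3 to 5% Krt10 and 1.103 when the sets were weighted to the same Krt10 share and depth. Markers of other cell types were read from lists. The 6 fibroblast genes summed to 42.0 CPM in members and 21.8 CPM in Krt24/Krt78-zero barcodes. The T cell genes summed to 72.2 CPM in members and 35.9 CPM in Krt24/Krt78-zero barcodes, most of it Trbc2 (67.5 CPM in members, 27.9 CPM in the zero barcodes). Trac had no UMI in members, and neither had the melanocyte genes Mlana, Tyr and Tyrp1. One member reached 68693 CPM of fibroblast genes. The sebocyte genes summed to 605 CPM in members and 270.4 CPM in Krt24/Krt78-zero barcodes, 2.24-fold higher, most of it in members from Dgat2, a triglyceride-forming enzyme (409 CPM in members, 84.0 CPM in the zero barcodes). The upper follicle genes summed to 2258.5 CPM in members and 2537 CPM in the zero barcodes, most of it Cst6 (1988 CPM in members, 2082 CPM in the zero barcodes). The part of these cell types in the results was not tested.

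A further set of genes, Tesc, Dkkl1 and Ivl, had been named as markers of these cells together with Krt24 and Krt78, and all 3 were higher in members than in Krt24/Krt78-zero barcodes. They had been picked from these data, so their values are a description. Tesc, which encodes the calcium-binding protein tescalcin, stood at 158 CPM in members and 7.99 CPM in Krt24/Krt78-zero barcodes, 19.7-fold higher (95% interval 14.3 to 28.1). Per barcode it ran from 0 to 1525 CPM in members with a median of 62.0, and from 0 to 1005 CPM with a median of 0 in Krt24/Krt78-zero barcodes. The ranges overlapped, and 505 members had no Tesc UMI.

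Dkkl1, a secreted protein related to the Dickkopf family of Wnt inhibitors, stood at 432 CPM in members and 24.8 CPM in Krt24/Krt78-zero barcodes, 17.4-fold higher (14.5 to 21.1). Its median per barcode was 186 CPM in members, with a highest value of 2592, and 0 in Krt24/Krt78-zero barcodes, with a highest value of 2010. Ivl stood at 148 CPM in members and 18.4 CPM in Krt24/Krt78-zero barcodes, 8.08-fold higher (6.52 to 10.1), with a median per barcode of 36.4 CPM in members and 0 in the zero barcodes. In the zero barcodes these genes were at about the level of basal barcodes, where Tesc had 5.31, Dkkl1 17.0 and Ivl 17.9 CPM. Free RNA, read from barcodes of 1 to 10 UMIs, held 33.1 CPM of Tesc, 94.8 CPM of Dkkl1 and 46.3 CPM of Ivl, and its part in these low levels was not tested.

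Across the 10661 genes with at least 30 UMIs in both sets together, leaving out Krt10, Krt24 and Krt78, 743 were at least 2-fold higher in members (6.97% of genes) and 812 at least 2-fold lower (7.62%). The median gene had a log2 ratio of −0.23, so a gene at 1 stands slightly above the middle of all genes. The 14 genes with the highest ratio, among those of at least 50 CPM, lay between 11.4-fold and 23.2-fold higher.

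These 14 genes include barrier enzymes, proteases and secreted proteins. Adh6a, an alcohol dehydrogenase, stood first at 296 CPM in members and 12.7 CPM in Krt24/Krt78-zero barcodes, 23.2-fold higher (17.98 to 30.5). Alox12b, the lipoxygenase whose loss in humans gives congenital ichthyosis, stood at 68.1 CPM in members and 4.10 CPM in the zero barcodes. Klk5, the kallikrein protease that starts the cascade of corneocyte shedding, stood at 260 CPM in members and 18.1 CPM in the zero barcodes. Slurp1, a secreted Ly6-family protein mutated in the palmoplantar disease Mal de Meleda, stood at 512 CPM in members and 38.7 CPM in the zero barcodes. Serpina12, the serpin called vaspin, stood at 226 CPM in members and 19.7 CPM in the zero barcodes.

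The other named genes were of mixed function. F3, tissue factor, the cell-surface starter of blood clotting, stood at 473 CPM in members and 30.5 CPM in Krt24/Krt78-zero barcodes, 15.5-fold higher. Mboat2, a lysophospholipid acyltransferase, was 18.4-fold higher, Orm1, an acute-phase plasma protein, 18.1-fold, and Stx19, a syntaxin of membrane fusion, 17.7-fold. Lypd5 was 13.7-fold higher, Kctd12 13.4-fold and Homer2, a scaffold protein, 11.4-fold. With Tesc and Dkkl1 these make up the 14. All 14 stayed at least 2-fold higher in each of the 17 other settings tried. They were picked as the highest ratios of these same barcodes, so this is a description. Leaving out the members of cluster 6, described further on, was not among the settings. Of the 14, Serpina12 alone fell under 2-fold in the members outside that cluster, at 1.52.

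**Figure D2:**
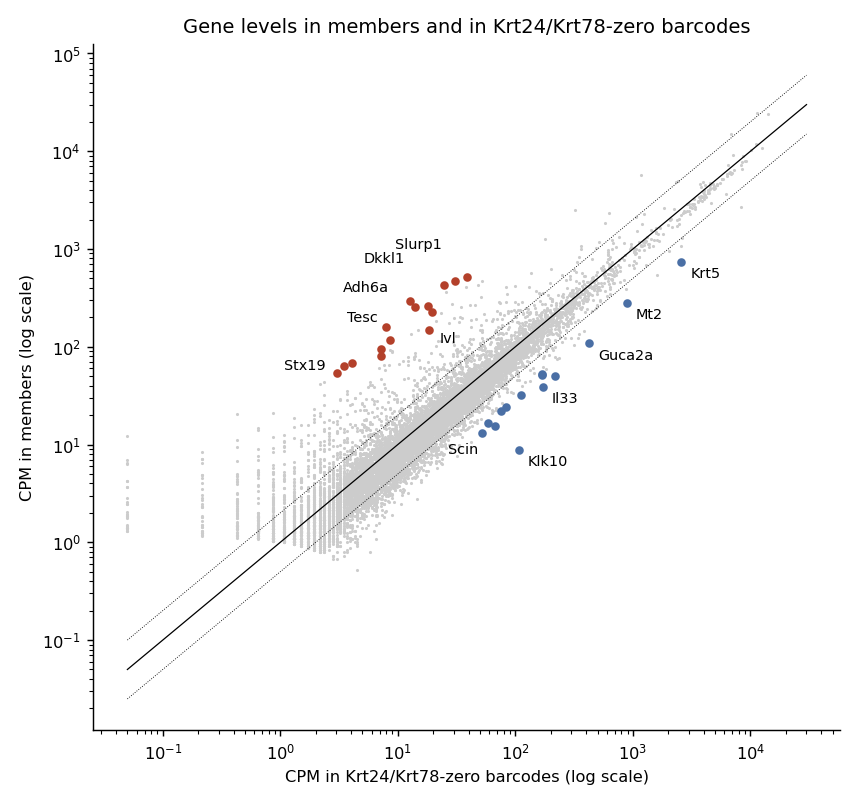
Level of each gene in members (vertical, CPM, log scale) against its level in Krt24/Krt78-zero barcodes (horizontal, CPM, log scale); genes with no UMI in the zero barcodes stand at the left edge, the solid line marks equal levels and dotted lines mark a 2-fold difference. Coloured points are Ivl and the 14 genes of highest ratio (red), and the 14 of lowest ratio (blue), with some named.

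The genes of lowest ratio were mostly genes that basal barcodes carried at high levels. Krt5, the basal type II keratin, stood at 743 CPM in members and 2579 CPM in Krt24/Krt78-zero barcodes, with 5891 CPM in basal barcodes. Il33, an alarmin cytokine stored in the nucleus, stood at 39.0 CPM in members and 171 CPM in the zero barcodes. Per barcode its median was 0 in members, with a highest value of 682 CPM, and 131 CPM in the zero barcodes, with a highest value of 1110 CPM. Guca2a, which encodes the peptide guanylin, stood at 108 CPM in members and 422 CPM in the zero barcodes, and at 529 CPM in basal barcodes.

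Others in that group are cell-cycle, matrix and metal-binding genes. Ccnd2, cyclin D2, stood at 51.8 CPM in members and 169 CPM in Krt24/Krt78-zero barcodes, and Mmp3, the matrix protease stromelysin 1, at 50.3 CPM in members and 219 CPM in the zero barcodes. Mt2, a metallothionein, stood at 283 CPM in members and 890 CPM in the zero barcodes. Wnt10a, a Wnt ligand needed for skin appendages, stood at 16.6 CPM in members and 59.0 CPM in the zero barcodes, and the glutamine synthetase gene Glul at 32.2 CPM in members and 112 CPM in the zero barcodes. Sema3c, Scin, Paics, S100a13 and Slc6a6 were 3.24-fold to 4.35-fold lower in members.

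Klk10 had the lowest ratio, 8.83 CPM in members and 107 CPM in Krt24/Krt78-zero barcodes, but few barcodes carried it. Its median was 0 in both sets, 298 of 334 zero barcodes had no Klk10 UMI, and 1 zero barcode reached 21924 CPM. Without the barcodes that held at least 10 UMIs of the upper follicle genes Krt79, Klk10 and Defb6, the ratio of members over zero barcodes was 1.11.

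Krt10 itself moved with the choice, so members and Krt24/Krt78-zero barcodes were also set side by side within bands of Krt10. The share of members was 21.8% at 1 to 2% Krt10, 46.0% at 2 to 3%, 73.1% at 3 to 5%, 93.8% at 5 to 8% and 96.7% at 8% or more. At 3 to 5% Krt10 there were 511 members and 71 zero barcodes, and Tesc stood at 116 CPM in members and 7.77 CPM in the zero barcodes, 14.97-fold higher (7.86 to 32.8). At 1 to 2% the Tesc ratio was 9.02 and at 2 to 3% it was 10.8. The Ivl ratio was 3.06 at 1 to 2% Krt10, 1.81 (1.15 to 2.98) at 2 to 3% and 4.04 at 3 to 5%. That of Adh6a was 21.6, 6.24 and 12.7 in the same bands. All 14 genes named as higher stayed at least 2-fold higher in each of these 3 bands. Over all genes tested, 349 of 6808, 313 of 7867 and 704 of 9173 were at least 2-fold higher in these bands. The sets still differed within a band. At 1 to 2% Krt10, Lor stood at 6259 CPM in members and 473 CPM in the zero barcodes. At 5 to 8% there were 7 zero barcodes and at 8% or more 0, so no ratios were taken there.

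The lower genes began nearer the 2-fold limit, at 3.14-fold to 12.1-fold lower over all Krt10 levels. Their counts past that limit thus cannot be set against those of the higher genes. Of the 14 named as lower, 6 stayed at least 2-fold lower at 1 to 2% Krt10, 7 at 2 to 3% and 11 at 3 to 5%. Over all genes tested, 190 of 6808, 140 of 7867 and 432 of 9173 were at least 2-fold lower in these bands. Guca2a kept ratios of members over zero barcodes of 0.36, 0.37 and 0.32, and Krt1 of 0.56, 0.51 and 0.43. Krt14, at 0.32 over all Krt10 levels, had 0.57, 0.57 and 0.85. Median depth stayed higher in members within each band, with 21118 UMIs in members and 16236 UMIs in zero barcodes at 3 to 5%.

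Genes of the basal list, integrins and keratins of the layer next to the dermis, were lower in members. Of 10 measured, 0 were at least 2-fold higher in members and 8 at least 2-fold lower, against 7.62% of all genes, and the median log2 ratio was −1.48, with −0.23 over all genes. The exceptions were Krt15, at 456 CPM in members and 783 CPM in Krt24/Krt78-zero barcodes, and Trp63, the p63 transcription factor, at 107 CPM in members and 148 CPM in the zero barcodes. Col17a1, a hemidesmosome collagen, stood at 77.1 CPM in members and 236 CPM in the zero barcodes, and Itga6, a laminin-receptor integrin, at 26.9 CPM in members and 77.1 CPM in the zero barcodes. At 3 to 5% Krt10 the count of genes at least 2-fold lower was 2 of 10, with 432 of 9173 over all genes tested there.

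Genes of the spinous list were split. Of 8 measured, 4 were at least 2-fold higher in members and 1, Krt1, at least 2-fold lower (6.97% and 7.62% of all genes). Krt1, the usual partner of Krt10 in the filament, stood at 1084 CPM in members and 2552 CPM in Krt24/Krt78-zero barcodes, 2.35-fold lower in members. Its median per barcode was 147 CPM in members and 1013 CPM in the zero barcodes, although the highest value, 37817 CPM, was in a member. Dsc1, the desmosomal cadherin of upper layers, stood at 43.8 CPM in members and 5.83 CPM in the zero barcodes, and Krt77 at 71.8 CPM in members and 11.02 CPM in the zero barcodes. Sbsn, suprabasin, stood at 5715 CPM in members and 1165 CPM in the zero barcodes.

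Genes of the granular list were higher in members, and a minority of members carried most of them. Of 14 measured, 11 were at least 2-fold higher in members and 0 at least 2-fold lower (6.97% and 7.62% of all genes), with a median log2 ratio of 2.41. The sum of all 15 listed genes stood at 2642 CPM in members and 695 CPM in Krt24/Krt78-zero barcodes, 3.801-fold higher. Per barcode the sum had a median of 788 CPM in members, with a highest value of 142210 CPM, and a median of 561 CPM in the zero barcodes, with a highest value of 78407 CPM. The medians were thus much closer than the sums.

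Lor, loricrin, the main protein of the mouse cornified envelope, showed how few barcodes set the sum. It stood at 991 CPM in members and 364 CPM in Krt24/Krt78-zero barcodes, but its median per barcode was 293 CPM in members and 299 CPM in the zero barcodes, and thinned to 3000 UMIs it was found in 63.1% of members and 63.8% of zero barcodes. Basal barcodes had 302 CPM of Lor and free RNA 1269 CPM. Members in which Lor took at least 1% of UMIs numbered 27 (2.21%), with 28815 CPM, and the other 1196 members had 416 CPM. Without such barcodes in either set the Lor ratio was 1.38, Flg 1.46, Hrnr 7.11 and Flg2 4.25. In that comparison 9 of the 14 granular genes stayed at least 2-fold higher, with 709 of 10628 over all genes. In members outside the granular-like cluster 6, described further on, Lor stood at 294 CPM, with 364 CPM in Krt24/Krt78-zero barcodes, a ratio of 0.81. The same ratio was 0.82 for Flg, 0.62 for Hrnr and 0.53 for Flg2. Of the 14 granular genes, Klk5 at 5.63, Tgm1 at 2.96 and Cnfn at 2.53 alone had such a ratio of at least 2. Hrnr and Flg2 were among the genes leading cluster 6, which was left out of the members only. The zero barcodes kept their highest values, 10274 CPM of Hrnr and 5948 CPM of Flg2. Without zero barcodes of at least 1% Lor, the zero set had 303 CPM of Lor, 17.9 CPM of Hrnr and 3.68 CPM of Flg. Whether these genes were lower in members outside cluster 6 was thus not tested.

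The enzymes that make and modify barrier lipids were higher as a group, with 12 of 17 measured at least 2-fold higher in members and 0 at least 2-fold lower (6.97% and 7.62% of all genes). Alox12b and Aloxe3, lipoxygenases that act in turn on ceramide-bound linoleate, were 16.6-fold and 6.97-fold higher, and Aloxe3 stood at 30.1 CPM in members and 4.32 CPM in Krt24/Krt78-zero barcodes. Alox12e, an epidermal lipoxygenase, stood at 223 CPM in members and 20.3 CPM in the zero barcodes, 10.98-fold higher (8.95 to 13.6). Sdr9c7, a dehydrogenase acting on oxidised ceramides, stood at 19.5 CPM in members and 2.16 CPM in the zero barcodes. Elovl1 and Elovl4, fatty acid elongases, were each at 287 CPM in members, with 84.0 and 113 CPM in the zero barcodes. Abca12, the lamellar body lipid transporter, stood at 47.6 CPM in members and 16.4 CPM in the zero barcodes. Elovl6 stood at 47.7 CPM in members and 53.1 CPM in the zero barcodes. At 3 to 5% Krt10 the count of genes at least 2-fold higher was 8 of 17, with 704 of 9173 over all genes tested there.

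Of 14 cornified envelope and plaque proteins measured, 9 were at least 2-fold higher in members and 0 at least 2-fold lower (6.97% and 7.62% of all genes). The 9 include Ivl, a marker picked from these data. Lor, Flg, Flg2, Hrnr, Cnfn and Tgm1 were already counted in the granular list and Sbsn in the spinous list. The count is thus not a separate result. Cnfn, cornifelin, stood at 220 CPM in members and 23.3 CPM in Krt24/Krt78-zero barcodes, and Tgm1, the membrane transglutaminase, at 25.9 CPM in members and 4.10 CPM in the zero barcodes. Ppl and Evpl, periplakin and envoplakin, had ratios of 1.73 and 1.76. Of the 16 Lce genes measured, late envelope proteins, 1 was at least 2-fold higher, against 6.97% of all genes. It was Lce6a, at 9.63 CPM in members and 3.02 CPM in the zero barcodes.

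Of 18 proteases and their inhibitors measured, 9 were at least 2-fold higher in members and 1, Klk10, at least 2-fold lower (6.97% and 7.62% of all genes). Klk7 stood at 257 CPM in members and 34.3 CPM in Krt24/Krt78-zero barcodes, Klk8 at 265 CPM in members and 44.9 CPM in the zero barcodes, and their inhibitor Spink5 at 564 CPM in members and 136.5 CPM in the zero barcodes. Serpinb3a had 514 UMIs in members and 2 in the zero barcodes, a ratio of 47.5 whose interval begins at 13.1. Serpinb2, an inhibitor of plasminogen activators, went the other way, with 243 CPM in members and 408 CPM in the zero barcodes.

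Of 13 junction genes measured, 6 were at least 2-fold higher in members and 0 lower (6.97% and 7.62% of all genes). Gjb2, a connexin subunit of gap junctions, stood at 18.5 CPM in members and 1.296 CPM in Krt24/Krt78-zero barcodes, 14.3-fold higher, and Gjb6 at 6.35 CPM in members and 1.08 CPM in the zero barcodes, whereas Gja1 stood at 51.8 CPM in both sets. Cldn4, a tight junction claudin, stood at 86.2 CPM in members and 14.04 CPM in the zero barcodes. At 3 to 5% Krt10 the count of genes at least 2-fold higher was 3 of 13, with 704 of 9173 over all genes tested there.

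Calcium-binding EF-hand genes were divided, with 4 of 15 at least 2-fold higher in members and 3 at least 2-fold lower (6.97% and 7.62% of all genes). The higher ones were Tesc, itself a marker picked from these data, and the calmodulin relatives Calml3, Calm4 and Calm2. Calml3 stood at 408 CPM in members and 38.0 CPM in Krt24/Krt78-zero barcodes, and Calm4 at 14867 CPM in members and 6852 CPM in the zero barcodes. The lower ones were S100a4, S100a6 and S100a10, and S100a6 stood at 547 CPM in members and 1619 CPM in the zero barcodes. Hspb1, a small heat shock protein of keratinising cells, stood at 2500 CPM in members and 319 CPM in the zero barcodes, 7.84-fold higher.

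Of 18 transcription factors of keratinocyte differentiation, 2 were at least 2-fold higher in members and 1 at least 2-fold lower, against 6.97% and 7.62% of all genes. The higher ones were Cebpb, at 93.3 CPM in members and 31.3 CPM in Krt24/Krt78-zero barcodes, and Grhl3, at 34.8 CPM in members and 17.3 CPM in the zero barcodes. The lower one was Tfap2b, at 45.9 CPM in members and 107 CPM in the zero barcodes, and Klf4, a regulator of barrier formation, stood at 621 CPM in members and 568 CPM in the zero barcodes. By the same 2-fold limits, 1 of 14 genes of Wnt and BMP signalling was higher, Dkkl1, which was picked from these data, and 3 were lower, Wnt10a, Sfrp1 and Fst. Of 7 Notch pathway genes 0 were higher and 1, Jag2, was lower.

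**Figure D3:**
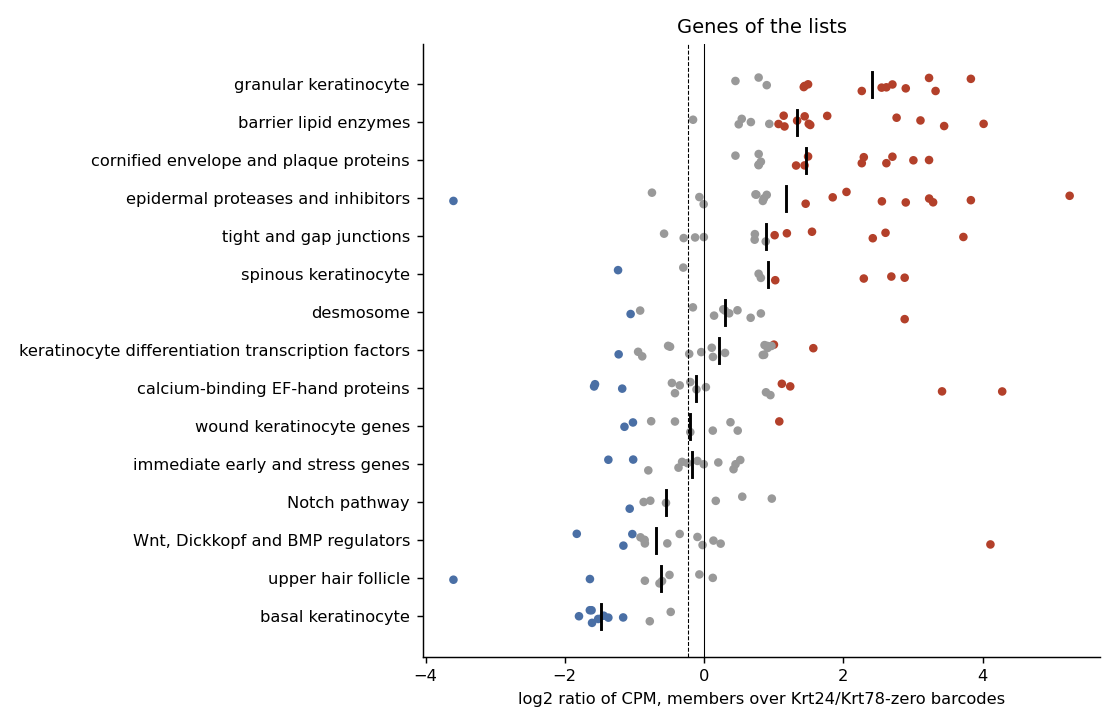
Log2 ratio of CPM in members over Krt24/Krt78-zero barcodes for every measured gene of 15 lists, 1 point a gene; black ticks are list medians, the dashed line is the median of all genes (−0.23), and red and blue points are at least 2-fold higher and lower. The granular, barrier lipid, cornified envelope and protease lists lie to the right, and the basal list lies to the left with its median at −1.48.

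Of 9 wound keratinocyte genes measured, 1 was at least 2-fold higher in members, Sprr1b, at 82.0 CPM in members and 38.7 CPM in Krt24/Krt78-zero barcodes (6.97% of all genes were higher and 7.62% lower). Those at least 2-fold lower numbered 2, Krt6a, at 20.3 CPM in members and 41.0 CPM in the zero barcodes, and Tslp, an epithelial cytokine, at 24.1 CPM in members and 53.1 CPM in the zero barcodes. Krt16, a keratin of wounded skin, stood at 33.8 CPM in members and 25.9 CPM in the zero barcodes. Of the genes of dividing cells, 1 of 10 S-phase genes, Rrm2, was 2.21-fold higher and 1 of 8 genes of G2 and M phase, Ccnb2, was 2.16-fold higher, and 0 were at least 2-fold lower. Thinned to 3000 UMIs, at least 1 UMI of 10 S-phase genes was found in 32.1% of members, 34.1% of zero barcodes and 46.5% of basal barcodes. For 8 genes of G2 and M phase the thinned shares were 17.99% of members, 13.8% of zero barcodes and 24.2% of basal barcodes, and unthinned they were 63.5% of members, 47.6% of zero barcodes and 53.2% of basal barcodes.

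Members were not uniform, and other genes differed with their levels of Krt24 and Krt78. The members were split into 4 groups of like size by CPM of the 2 keratins, at 417, 869 and 1695 CPM, which is a description because the same counts chose them. From the lowest to the highest group Tesc stood at 42.7, 108, 195 and 306 CPM, and Dkkl1 at 98.8, 264, 464 and 977 CPM. Ivl stood at 39.2, 75.4, 140 and 370 CPM, and Hspb1 at 952, 1694, 2689 and 5019 CPM. Each of these genes was higher in each group than in the one before. Krt10 rose over the same groups, at 32787, 38648, 46557 and 62801 CPM, and Krt2, at 17814, 21471, 25435 and 35604 CPM. The part of Krt10 in the order of the other genes was not tested. The spinous list was divided. Dsg1a rose in the same way, at 429, 543, 585 and 788 CPM, and Dsc1, at 16.7, 29.5, 46.9 and 88.1 CPM. Krt77 of that list had no such order, with 64.4, 124, 49.2 and 47.9 CPM.

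Krt1 and Mt4, also of the spinous list, ran the other way over the same groups. Krt1 stood at 1673, 1128, 926 and 526 CPM, and Mt4, a metallothionein of stratified epithelium, at 4509, 4074, 3318 and 1598 CPM. Lor had no such order, with 1080, 1075, 614 and 1236 CPM. Across the 1223 members the Spearman correlation of Krt24 with Krt78 CPM was 0.40, and that of Krt10 share with the CPM of the 2 keratins was 0.61. These points come from 1 library and share their depth.

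A later stage, taken as the 78 Mus barcodes with Lor at 1% of UMIs or more, whatever their Krt10, was set beside the members. Tesc stood at 306 CPM in the members' highest group and 92.1 CPM in the Lor barcodes. Alox12e stood at 294 CPM in the highest group and 19.96 CPM in the Lor barcodes. Dkkl1 stood at 977 CPM in the highest group and 831 CPM in the Lor barcodes, whereas Adh6a stood at 725 CPM in the highest group and 1294 CPM in the Lor barcodes. Krt24 stood at 2612 CPM and Krt10 at 62801 CPM in the members' highest group, with 634 CPM of Krt24 and 13066 CPM of Krt10 in the Lor barcodes. Of the 78, 61 had at least 3 UMIs of Krt24 and Krt78, but 27 were members, since Krt10 was under 1% in others.

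**Figure D4:**
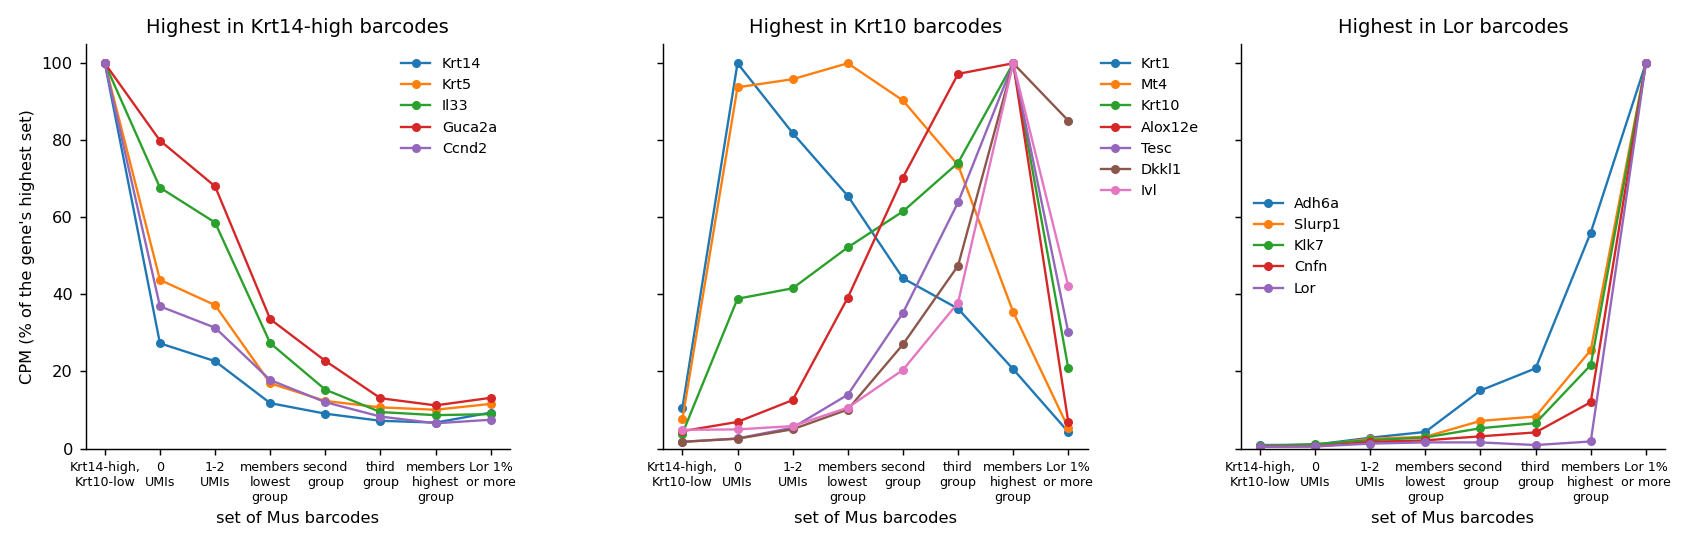
CPM of single genes as a percent of each gene's highest set, in basal barcodes (Krt14-high, Krt10-low), barcodes with 0 and with 1 or 2 UMIs of Krt24 and Krt78, the 4 groups of members from the lowest to the highest, and barcodes with Lor at 1% of UMIs or more, 27 of which are also members. Krt14 and Krt5 are highest in basal barcodes, Tesc and Ivl in the highest group of members, and Adh6a, Klk7 and Lor in the Lor barcodes.

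When all Krt10 barcodes were clustered on genes other than Krt10, Krt24 and Krt78, members spread over all 10 clusters. Clusters were made from the same cells, so their genes are a description. Clusters 4, 6, 7 and 8 consisted of members by more than 90% each (219 of 229, 183 of 189, 164 of 181 and 170 of 173 barcodes) and together held 736 members (60.2%). The cluster with the fewest was cluster 1, where 37 of 328 barcodes were members. It was led by Krt5, Krt14 and Glul, with 3 basal markers among its 10 leading genes, and is basal-like.

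Cluster 6 was granular-like and had 5 granular markers among its 10 leading genes, with Wfdc21, Hrnr, Serpina12 and Flg2 first. Its 183 members, 14.96% of all members, held 15.3% of the members' UMIs. They held 91.9% of the members' UMIs of Hrnr, 90.7% of Flg2, 86.6% of Klk7 and 74.9% of Lor. They held 88.9% of the UMIs of Serpina12, 83.3% of Slurp1 and 81.5% of Orm1. In members outside cluster 6, Slurp1 stood at 101 CPM, Orm1 at 55.4 CPM and Serpina12 at 29.8 CPM, with 38.7, 14.04 and 19.7 CPM in Krt24/Krt78-zero barcodes. Those 183 barcodes thus held most of the UMIs of these 3 genes. Outside cluster 6 Hrnr stood at 18.8 CPM and Flg2 at 8.02 CPM in members, with 30.2 and 15.1 CPM in the zero barcodes, and Cdsn stood at 26.0 CPM in members and 34.1 CPM in the zero barcodes. Klk7 stood at 40.6 CPM in those members and 34.3 CPM in the zero barcodes. Hrnr, Flg2, Cdsn and Klk7 were among the genes leading cluster 6, and the cluster was left out of the members only. Whether these genes differed between the other members and the zero barcodes was thus not tested.

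Cluster 6 also held 75.3% of the members' Lypd5 UMIs, 74.5% of Adh6a, 66.7% of Klk5, 66.2% of Ivl and 60.9% of Mboat2. Adh6a stood at 89.2 CPM in the members outside it, 6.997-fold above the 12.7 CPM of Krt24/Krt78-zero barcodes.

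Tesc and Alox12e were spread over more members. Cluster 6 held 29.8% of the members' Tesc UMIs, cluster 8 held 33.5% and cluster 4 held 20.7%, and members outside cluster 6 had 131 CPM, 16.3-fold above Krt24/Krt78-zero barcodes. Alox12e was at 297, 230, 245 and 454 CPM in the members of clusters 4, 6, 7 and 8. Ivl was at 641 CPM in the members of cluster 6 and 59.2 CPM in the other members. Cluster 8, led by Serpinb3a, Tesc and Homer2, had Lor at 291 CPM in its members, with 364 CPM in the zero barcodes. Cluster 4 was led by the haemoglobin gene Hbb-bs, 307 CPM in the cluster, and by Serpinb12 and Alox12e.

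Clusters 9 and 10 stood apart from the rest. Cluster 9 was upper follicle-like, led by Klk10, Defb6 and Krt79, and 45 of its 94 barcodes were members. Doublet scores marked 55 of the 94, with 6.11% marked over all Mus barcodes. Cluster 10 had a median of 5984 UMIs and 0.30% mitochondrial UMIs, and was led by Fabp4, Lrg1 and Ccl21a, with Fabp4 at 371 CPM in the cluster and 7.72 CPM in the other Krt10 barcodes. Plvap and Cldn5, endothelial genes, were also among its leaders, so it was left unnamed, and 66 of its 89 barcodes were members. Without barcodes under 1% mitochondrial UMIs, 1145 members remained, with 724 genes past 2-fold in the higher direction and 780 in the lower.

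**Figure D5:**
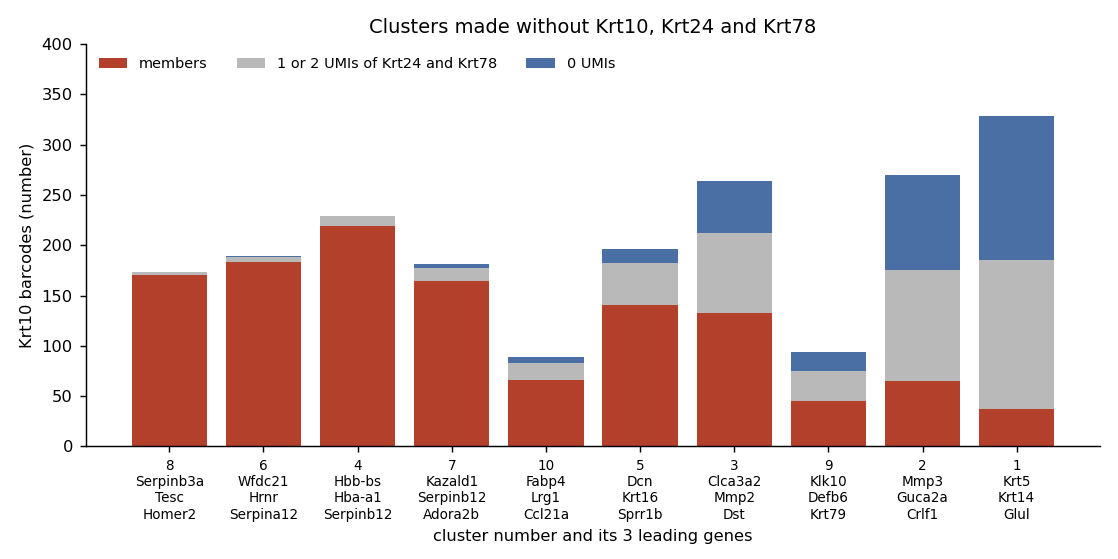
Number of Mus Krt10 barcodes in each of 10 clusters made without Krt10, Krt24 and Krt78, ordered by the percent that are members; red is members, grey is barcodes with 1 or 2 UMIs of Krt24 and Krt78, and blue is those with 0. Members fill clusters 8, 6, 4 and 7 almost wholly and are fewest in cluster 1.

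Krt24 and Krt78 were also found outside the Krt10 barcodes. In the Mus library 324 barcodes had at least 3 UMIs of the 2 keratins with Krt10 under 1%, of which 34 were Lor barcodes. The remaining ones had 24162 CPM of Krt14, 1103 CPM of Krt6a and 544 CPM of Krt16, and Tesc at 5.89 CPM, near the 5.31 CPM of basal barcodes.

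The same rule was applied to the Acomys library, in which the mitochondrial limit could not be used because its gene list holds 0 mt- genes. There 394 of 1327 Krt10 barcodes (29.7%) met it and 572 had 0 UMIs of both keratins. Depth differed, with a median of 20485 UMIs in the Mus members and 14134 in those 394, so the shares of the species are given side by side and not compared. Of the 14 genes named as higher in Mus members, 11 had a symbol in the Acomys gene list and 7 had at least 30 UMIs. Of these 7, 5 were at least 2-fold higher in the Acomys barcodes of the rule, as were 4.27% of all Acomys genes tested, and the others were Stx19 at 1.67-fold and Alox12b at 1.45-fold.

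Ivl stood at 177 CPM in the Acomys barcodes of the rule and 46.0 CPM in the Acomys zero barcodes, 3.85-fold higher (3.37 to 4.41). Lor stood at 994 CPM in the Acomys barcodes of the rule and 54.8 CPM in the Acomys zero barcodes, and Cdsn, corneodesmosin, at 1376 CPM in the barcodes of the rule and 61.6 CPM in the zero barcodes. Tesc had 1 UMI in the Acomys barcodes of the rule and 6 in the zero barcodes, a ratio of 0.16 with an interval of 0.0035 to 1.34, and Dkkl1 had 12 UMIs in the barcodes of the rule and 17 in the zero barcodes. The submitters' processing notes name the mouse build mm10 for both libraries, and its part in the low counts of Acomys genes was not tested. Of the 14 named as lower in Mus members, 10 had at least 30 UMIs in Acomys, of which 1, Il33, was at least 2-fold lower (2.67% of all Acomys genes tested) and 0 were 2-fold higher.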

How the data were processed

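Droplet single-cell RNA was counted from 1 Mus and 1 Acomys ear skin library. Per the submitters' processing notes, Cell Ranger 2.2.0 and the build mm10 were used; the labels do not say at which step. The deposited files are unnormalized UMI count matrices of genes by every barcode, with empty droplets included. The labels' protocol names a Chromium 10X suspension and 3′-end cDNA.

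UMIs of 67 gene symbols listed more than once in Mus were summed. Mitochondrial genes numbered 13 in Mus. A gene was listed with at least 30 UMIs over both sets, and a ratio of CPM of at least 2 or at most 0.5 was counted. CPM intervals are exact Poisson and ratio intervals are conditional binomial; shares use Clopper-Pearson. The members and gene lists were chosen with earlier results of these data known. Genes were named by a fixed rule: the 14 highest and 14 lowest ratios among genes of at least 50 CPM in the higher set, without Krt10, Krt24, Krt78, ribosomal, mitochondrial and Gm or Rik genes, plus the given markers and up to 5 genes of each list by level or ratio. Krt2, connexin and regulator values beyond that rule were chosen after their values were seen.

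Barcodes of at least 5 UMIs of endothelial, 20 of fibroblast or 3 of T cell genes and under 0.5% Krt10 served as cells that should lack Krt24; basal barcodes had at least 2% Krt14. Thinning drew 3000 UMIs per barcode. The 6.11% of barcodes with the highest scanpy 1.11.5 scrublet scores were taken as doublets and kept in the main comparison. Leiden clustering used 2000 variable genes, 30 components, 20 neighbours and resolution 1. The count ratios were tested on simulated data. No genome coordinates were taken from the files; promoters are from RefSeq. Python 3.11.15 and scipy 1.17.1 were used.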

Additional observations from a re-analysis of the deposited data

Results flagged for a closer look

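Mt2, a metallothionein, went in opposite directions in the species. Its ratio of members over Krt24/Krt78-zero barcodes was 0.32 in Mus (283 CPM in members and 890 CPM in zero barcodes). In Acomys the ratio was 1.62 (13.7 CPM in the barcodes of the same rule and 8.46 CPM in zero barcodes), from 85 and 51 UMIs. With 1 library for each species the difference between them was not tested.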

How the results depend on the processing

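Thinning each barcode to 3000 UMIs before the choice left 618 members. The count of genes at least 2-fold lower was 1348 with 10% of UMIs subtracted as free RNA and 464 with at least 100 UMIs per gene. With at least 1 UMI per gene the counts were 3409 higher and 2161 lower; that setting adds genes of very low count. With the Krt24/Krt78-zero barcodes weighted to the Krt10 share and UMI total of 1165 members, 1403 genes were at least 2-fold higher and 8 of the 14 named lower genes stayed lower; the weights left 35.9 effective zero barcodes, and the cause was not tested. The largest share of members in 1 cluster, 17.9%, was 30.5% at resolution 0.5 and 11.69% at resolution 2. The Klk10 ratio turned to 1.202 at Krt10 of at least 3% and to 1.108 without upper follicle barcodes. Of 493 ratios of single genes, 357 stayed within the counting interval, 134 moved out of it with no change of direction, and 2 reversed. The settings of 300 CPM, upper follicle, Lor and mitochondrial barcodes were chosen after seeing the data. No paired analysis was possible because each species had 1 library. Depth limits genes under about 30 UMIs, and with no second library the spread between animals is unknown.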
